A study of Homo sapiens with 6 samples.

Results

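Circadian clock transcripts were examined in RNA sequencing libraries of cells labelled BxPC-3, an established human pancreatic adenocarcinoma line, with and without chemical inhibition of PRMT5. The genes were chosen by symbol, as the 10 rows of the expression table named PER1, PER2, PER3, CRY1, CRY2, NR1D1, NR1D2, DBP, BHLHE40 and ARNTL, and all 10 were found among 58735 genes. In 3 libraries the cells had received GSK3326595, a small-molecule inhibitor of PRMT5, and in the other 3 DMSO, the vehicle; the sources used here give no dose, duration or time of harvest. All 6 libraries share the labelled line, its RPMI-1640 medium with serum and a directional library kit. Nothing in the labels ties the replicates to separate cultures, so the p-values reflect only how far these samples differ from each other, and that spread may be technical. The series title concerns methylation of MST2 by PRMT5, and its design text speaks of a knockdown whereas the labels of the treated libraries name the inhibitor. The library labels were followed here.

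The mammalian clock is a transcriptional feedback loop. CLOCK or NPAS2 pairs with the ARNTL protein, also called BMAL1, and binds E-box sequences in the PER, CRY, NR1D1, NR1D2, DBP and BHLHE40 genes. PER and CRY proteins then repress that activator, while the NR1D receptors, known as REV-ERB alpha and beta, repress ARNTL through sites that the ROR receptors activate. PRMT5, which places symmetric dimethyl marks on arginine, is tied to circadian timing in Arabidopsis and Drosophila through the splicing of clock transcripts.

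With the inhibitor, 5 of the 10 clock genes changed, in opposing directions. NR1D1, BHLHE40 and ARNTL fell, and DBP and PER2 rose. The largest changes were those of NR1D1 and DBP, log2 fold changes of −1.15 and 1.02. PER1, the most abundant of the period genes, stood at nearly the same level in both groups. A gene was called at an adjusted p under 0.05 from limma fitted to log2(FPKM + 1) of all 13578 genes tested, with Benjamini-Hochberg adjustment. FPKM are fragments scaled to gene length and sequencing depth, and fold changes on this scale understate those of genes with low values. By that rule 17.2% of all tested genes were called, 7.18% higher and 10.0% lower with the inhibitor, against 5 of the 10 clock genes, 2 higher and 3 lower. The clock genes were chosen with earlier results of these data known, so the shares are set side by side only as a description. The median log2 fold change was −0.13 over the 10 clock genes and −0.05 over all genes tested. The groups did not overlap for 8 of the 10 clock genes, and they did not overlap for 45.9% of all genes tested. In bulk RNA such as this, fewer cells with a transcript and less of it per cell cannot be told apart.

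The libraries held 14087260 to 15724750 reads each. Inhibitor replicate 2 stood apart: its log2 values correlated over genes with those of the other inhibitor libraries at r = 0.904 and r = 0.906 (genes are not independent of each other), whereas those libraries correlated with each other at r = 0.980. Mitochondrial genes took 11.3% of its reads, against 5.84% to 6.03% in the other inhibitor libraries and 4.70% to 5.01% in DMSO. Nuclear coding genes under 1500 bases took 1.09% of its nuclear coding reads. Their share was 2.27% and 2.36% in the other inhibitor libraries and 2.44% to 2.61% in DMSO. Values without inhibitor replicate 2 are given beside some of the results, and 40.6% of all tested genes were then called. PRMT5 itself had 13.4, 12.8 and 12.1 FPKM with the inhibitor, against 23.2, 24.6 and 26.2 FPKM in DMSO, and was called lower (log2 fold change −0.90, adjusted p = 0.00493). The labelled cell identity did not match all of its markers. KRT19, CEACAM6 and PDX1 had 0 reads in every library; the most that 0 reads allows, taken as 3 reads in the 6 libraries together and covering counting error only, is 0.0142 FPKM for KRT19. EPCAM stood at 0.316 ± 0.0422 FPKM with the inhibitor and 0.211 ± 0.0945 FPKM in DMSO (SD, n = 3 each). CDH1 was also low, at 0.446 ± 0.0629 FPKM with the inhibitor and 0.118 ± 0.0273 FPKM in DMSO. SOX9 stood at 2.27 ± 0.158 and 3.67 ± 0.651 FPKM in inhibitor and DMSO libraries. KRT8, KRT18, KRT7 and MUC1 were abundant and made up nearly all of the summed FPKM of the 10 ductal epithelial markers. That sum was 790 to 1042 FPKM in the inhibitor libraries and 675 to 755 FPKM in DMSO, with 1 marker called higher and 1 lower. CDKN2A and SMAD4, known to be deleted in BxPC-3, had 50.1 ± 22.1 and 3.02 ± 0.535 FPKM with the inhibitor and 107 ± 11.2 and 3.64 ± 0.283 FPKM in DMSO. The 6 fibroblast markers summed to 10.2 to 15.4 FPKM with the inhibitor and 5.09 to 5.68 FPKM in DMSO, PDGFRB being called higher, with COL1A2, LUM and PDGFRA at 0 reads. Endothelial markers summed to at most 0.823 and 1.46 FPKM in inhibitor and DMSO libraries, with CDH5 called lower, leukocyte markers to at most 0.0974 and 0.309 FPKM, and the 4 acinar and endocrine pancreas markers had 0 reads. The part of these marker differences in the clock results was not tested.

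The sequences below show where the best-known clock elements lie before RefSeq starts of the genes whose levels are compared here. The 250 bases before each RefSeq start (GRCh38.p14) were searched on both strands for the E-box CACGTG, the variant E-box CACGTT, the D-box TTATGTAA bound by DBP, the core TAGGTCA of the element shared by REV-ERB and ROR receptors, and the cAMP element TGACGTCA. All 10 genes had a window, 14 windows in all, and the matched letters are in capitals, read 5′ to 3′ along each gene's strand. Stretches that GENCODE 29 lists as exon of the same gene were left off, or shown as 30 bases around the match. The BHLHE40 window lies wholly in such exon, so its E-box does too. The printed stretches of PER1, PER2 and NR1D2 lie inside the gene as listed, not in front of it. The stretches are chr17:8152436-8152654 on the minus strand for PER1, chr2:238288611-238288860 on the minus strand for PER2, chr1:7784041-7784290 on the plus strand for PER3, chr17:40100726-40100839 on the minus strand for NR1D1, chr3:23945871-23946120 on the plus strand for NR1D2 and chr3:4979187-4979216 on the plus strand for BHLHE40.
PER1: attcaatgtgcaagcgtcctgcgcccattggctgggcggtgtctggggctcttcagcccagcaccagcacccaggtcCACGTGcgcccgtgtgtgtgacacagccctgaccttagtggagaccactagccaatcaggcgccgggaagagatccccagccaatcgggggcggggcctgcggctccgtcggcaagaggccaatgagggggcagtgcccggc
PER2: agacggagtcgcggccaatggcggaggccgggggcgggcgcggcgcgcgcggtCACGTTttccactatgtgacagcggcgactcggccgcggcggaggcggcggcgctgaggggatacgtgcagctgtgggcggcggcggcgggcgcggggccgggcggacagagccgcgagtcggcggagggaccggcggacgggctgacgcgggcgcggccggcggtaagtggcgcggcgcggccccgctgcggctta
PER3: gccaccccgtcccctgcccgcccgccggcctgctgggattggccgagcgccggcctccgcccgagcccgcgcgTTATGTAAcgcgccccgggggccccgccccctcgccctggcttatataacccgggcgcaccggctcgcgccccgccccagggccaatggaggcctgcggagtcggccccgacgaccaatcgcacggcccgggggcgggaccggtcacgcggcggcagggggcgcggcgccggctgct
NR1D1: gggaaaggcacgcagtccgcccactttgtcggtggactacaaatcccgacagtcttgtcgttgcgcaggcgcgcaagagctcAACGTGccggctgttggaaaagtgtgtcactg
NR1D2: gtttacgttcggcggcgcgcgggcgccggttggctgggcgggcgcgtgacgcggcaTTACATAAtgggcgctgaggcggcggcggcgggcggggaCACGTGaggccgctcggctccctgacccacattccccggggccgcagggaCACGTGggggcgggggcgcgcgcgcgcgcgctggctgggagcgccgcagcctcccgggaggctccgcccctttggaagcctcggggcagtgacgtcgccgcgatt
BHLHE40: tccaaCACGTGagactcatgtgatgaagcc

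In these stretches the E-box began 173 bases before the start in PER1 and 245 bases before it in BHLHE40, and NR1D2 held a pair of E-boxes 155 and 105 bases before its second listed start. The variant E-box lay 197 bases before the start in PER2 and 168 bases before it in NR1D1, where it reads AACGTG on the printed strand, and CRY1 and CRY2 held it as well. A D-box lay 177 bases before the first start of PER3 and, as TTACATAA, 194 bases before the second start of NR1D2. The D-box was present in 0.834% of all 35116 windows of this length in the table, the E-box in 6.34% and the variant E-box in 4.55%. The receptor core was present in 1.61% of these windows and the cAMP element in 1.65%. These shares are per window. The counts that follow are per gene, and some genes have a second window, so the units differ. Of the 10 genes, 3 had an E-box, 4 a variant E-box and 2 a D-box, CRY2 had the receptor core, none had the cAMP element, and DBP and ARNTL had no match. The 3 called genes with either E-box form went both ways, PER2 higher and NR1D1 and BHLHE40 lower, and PER1 and NR1D2, which have the E-box, were not called. A match is only a run of letters and does not show binding.

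**Figure D1:**
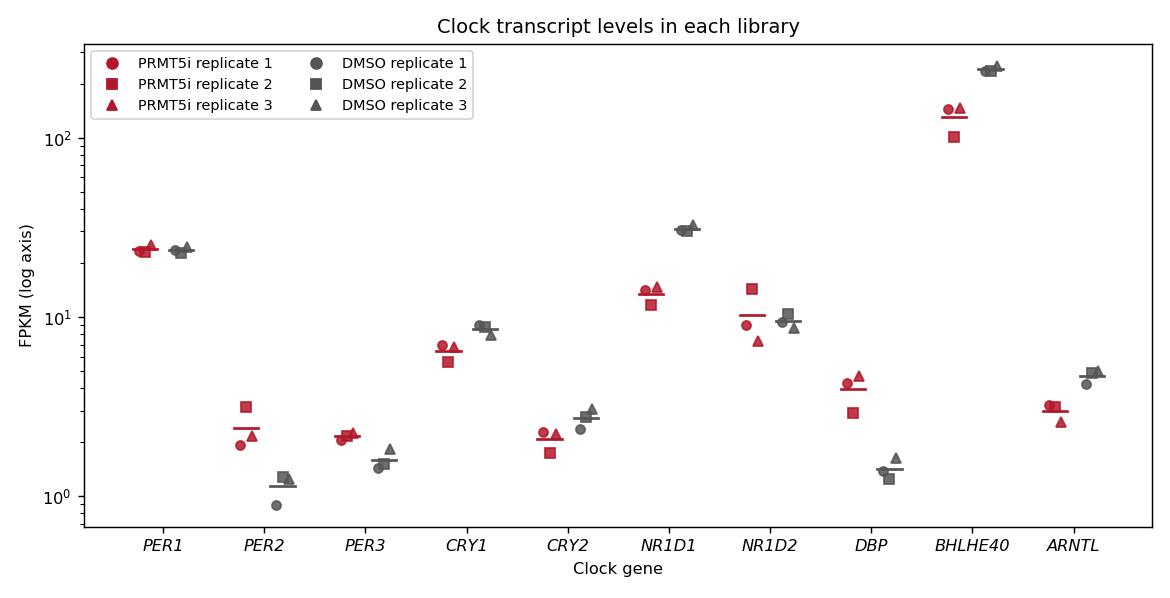
FPKM of the 10 clock genes on a log axis, with a point for each library (inhibitor, labelled PRMT5i, left of DMSO) and a bar at the mean of 3. The inhibitor points lie wholly below the DMSO points for CRY1, CRY2, NR1D1, BHLHE40 and ARNTL, wholly above them for PER2, PER3 and DBP, and overlap them for PER1 and NR1D2.

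By level, BHLHE40 came first in both groups. In the inhibitor libraries the order of mean FPKM was BHLHE40 (131), PER1 (23.8), NR1D1 (13.5), NR1D2 (10.2), CRY1 (6.44), DBP (3.96), ARNTL (2.98), PER2 (2.41), PER3 (2.16) and CRY2 (2.07). The neighbours NR1D1 and NR1D2 overlapped there, as did each neighbouring pair from DBP down to CRY2. In DMSO the order was BHLHE40 (241), NR1D1 (31.1), PER1 (23.7), NR1D2 (9.47), CRY1 (8.56), ARNTL (4.68), CRY2 (2.73), PER3 (1.60), DBP (1.42) and PER2 (1.14), and only NR1D2 with CRY1, PER3 with DBP and DBP with PER2 overlapped as neighbours. So NR1D1 stood above PER1 in every DMSO library and below it in every inhibitor library, and DBP, next to last in DMSO, stood above CRY2 in every inhibitor library. These levels are per listed gene length, which exceeds the longest coding transcript in GENCODE 29 for most of the genes. For DBP it is 6544 bases against 2229, so its level per length of messenger RNA is understated relative to NR1D1, whose only coding transcript has the listed 2772 bases.

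Among the period genes, which encode the repressors that bind CRY proteins, PER2 rose. PER2 (ENSG00000132326, chromosome 2, 238244038 to 238290102) had 1.93, 3.15 and 2.16 FPKM with the inhibitor, against 0.893, 1.27 and 1.25 FPKM in DMSO. All 3 inhibitor libraries were above all 3 DMSO libraries, with replicate 2 the highest. The log2 fold change was 0.66 (SE 0.17, adjusted p = 0.0470), a ratio of mean FPKM of 2.12. The values rest on 217, 290 and 242 reads with the inhibitor and 96, 128 and 127 in DMSO. With reads in place of FPKM (limma-voom) the log2 fold change was 1.06 (adjusted p = 0.0252), and without inhibitor replicate 2 it was 0.51 (adjusted p = 0.0278). The call was lost without any other single library, without a filter on low values and with quantile normalization, with adjusted p over all alternatives running from 0.00380 to 0.167.

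PER1 (ENSG00000179094, chromosome 17, 8140472 to 8156506), an early-responding period gene, had 23.2, 23.1 and 25.0 FPKM with the inhibitor and 23.7, 22.8 and 24.5 FPKM in DMSO. The groups overlapped, on 2169 to 2859 reads a library. Its log2 fold change was 0.01 (SE 0.10, adjusted p = 0.962) and was slightly negative with TPM scaling (−0.03). PER3 (ENSG00000049246, chromosome 1, 7784320 to 7845177), a period gene not essential for rhythm in mice, had 2.06, 2.17 and 2.24 FPKM with the inhibitor, against 1.44, 1.52 and 1.83 FPKM in DMSO. The groups stood apart, but the gene was not called (log2 fold change 0.29, SE 0.12, adjusted p = 0.147). Of its exonic bases, 868 are shared on the opposite strand with UTS2, which was listed at 0 in every library, and 482 with Z98884.1, at 0.527 ± 0.319 FPKM with the inhibitor and 0.964 ± 0.107 FPKM in DMSO (SD, n = 3 each).

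PER1 made up less of the summed period FPKM with the inhibitor. Its share was 85.4%, 81.3% and 85.1% in the inhibitor libraries, against 91.0%, 89.1% and 88.8% in DMSO. PER2 made up 8.49% ± 2.24 with the inhibitor and 4.31% ± 0.791 in DMSO, and PER3 7.60% ± 0.0212 and 6.03% ± 0.571 (SD, n = 3 each). The summed FPKM of the 3 genes was 28.4 ± 1.10 with the inhibitor and 26.4 ± 1.05 in DMSO. Within each library, log2(FPKM + 1) of PER1 minus that of PER2 averaged 2.88 ± 0.293 with the inhibitor and 3.53 ± 0.160 in DMSO, a difference of −0.66. An exact two-sided permutation test gave p = 0.1, the smallest that 3 against 3 allows, and 0.125 after adjustment over the 5 pairs of related genes compared. The same exact p of 0.1 came from PER1 minus PER3 (−0.28) and PER2 minus PER3 (0.38), so with this design no pair can pass 0.05.

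**Figure D2:**
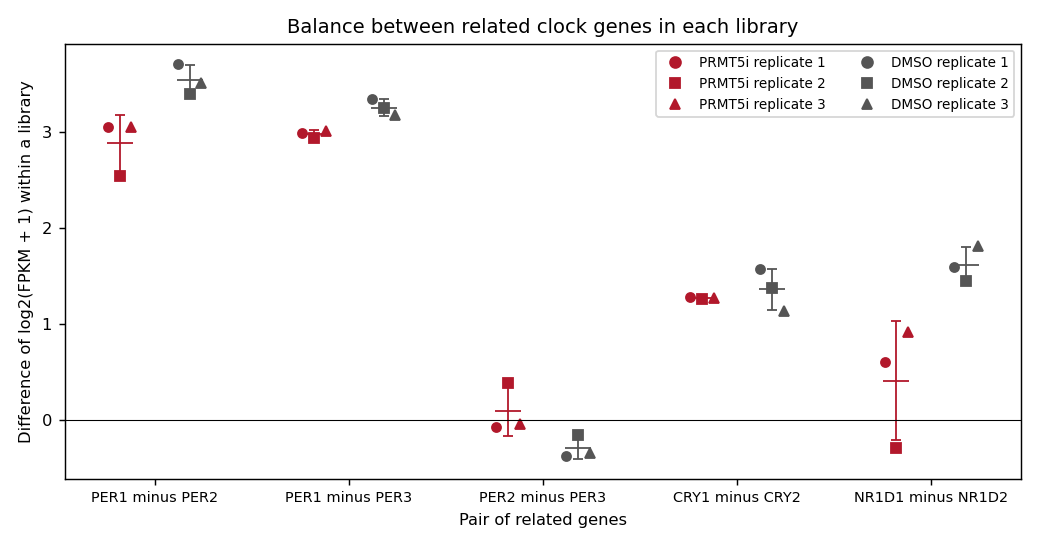
Difference of log2(FPKM + 1) between related genes within each library, for 5 pairs, with the inhibitor (PRMT5i) left of DMSO; crossbars are means and error bars SD of 3. The inhibitor libraries lie below DMSO for both PER1 pairs and for NR1D1 minus NR1D2 and above DMSO for PER2 minus PER3, while CRY1 minus CRY2 overlaps.

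Neither cryptochrome was called. CRY1 (ENSG00000008405, chromosome 12, 106991364 to 107093829), the stronger repressor of the pair in mouse cells, had 6.97, 5.56 and 6.78 FPKM with the inhibitor, against 8.98, 8.81 and 7.89 FPKM in DMSO. All inhibitor values were below all DMSO values, with replicate 2 the lowest. Its log2 fold change was −0.37 (SE 0.12, adjusted p = 0.0883), and it was called without inhibitor replicate 2 (−0.28, adjusted p = 0.0356; adjusted p over all alternatives 0.00358 to 0.269). That call was lost when the trend of values with gene length was removed as well (−0.23, adjusted p = 0.0628 in the limma fit). CRY2 (ENSG00000121671, chromosome 11, 45847118 to 45883248), the second PER partner, had 2.27, 1.74 and 2.22 FPKM with the inhibitor, against 2.36, 2.78 and 3.04 FPKM in DMSO. The groups were apart only narrowly (log2 fold change −0.28, SE 0.14, adjusted p = 0.197). CRY1 took 75.7% ± 0.484 of the pair's FPKM with the inhibitor and 75.8% ± 3.51 in DMSO (SD, n = 3 each). The within-library difference CRY1 minus CRY2 changed by −0.09 (exact permutation p = 0.7) and turned to 0.0084 with quantile normalization.

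NR1D1 fell, and of the 10 clock genes it alone was called under every alternative. NR1D1 (ENSG00000126368, chromosome 17, 40092787 to 40100725), which encodes REV-ERB alpha, had 14.2, 11.6 and 14.7 FPKM with the inhibitor, against 30.4, 30.2 and 32.7 FPKM in DMSO. No inhibitor library reached the lowest DMSO library, on 430 to 665 and 1224 to 1344 reads. The log2 fold change was −1.15 (SE 0.13, adjusted p = 0.00406), and −1.06 without inhibitor replicate 2. Its call held in all 20 alternatives, including each fit that left out 1 library, where the highest adjusted p was 0.0333. NR1D1 shares 263 of its 2772 exonic bases with THRA on the opposite strand, and the sources used here do not say if counting used the strand, so reads of the shared stretch may fall to either gene. THRA, which encodes thyroid hormone receptor alpha, stood at 12.1 ± 1.47 FPKM with the inhibitor and 10.3 ± 0.276 FPKM in DMSO (SD, n = 3 each; log2 fold change 0.21, adjusted p = 0.257).

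NR1D2, which encodes REV-ERB beta, was not called. NR1D2 (ENSG00000174738, chromosome 3, 23945260 to 23980618) had 8.97, 14.3 and 7.33 FPKM with the inhibitor, against 9.38, 10.4 and 8.63 FPKM in DMSO. Inhibitor replicate 2 was above and replicate 3 below every DMSO library. The log2 fold change was 0.05 (SE 0.23, adjusted p = 0.894), and it turned to −0.20 (adjusted p = 0.210) without inhibitor replicate 2, the lowest adjusted p of any alternative. NR1D1 made up 61.2%, 44.8% and 66.7% of the FPKM of the receptor pair in the inhibitor libraries, against 76.4%, 74.3% and 79.1% in DMSO. The summed FPKM of the pair was 23.7 ± 1.98 with the inhibitor and 40.6 ± 0.812 in DMSO (SD, n = 3 each). The within-library difference NR1D1 minus NR1D2 changed by −1.21 (exact permutation p = 0.1, adjusted 0.125 over 5 pairs), and by −0.86 without inhibitor replicate 2.

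DBP rose while NR1D1, which the same activator drives, fell. DBP (ENSG00000105516, chromosome 19, 48630030 to 48637438), a transcription factor that binds D-boxes, had 4.28, 2.89 and 4.70 FPKM with the inhibitor, against 1.39, 1.24 and 1.62 FPKM in DMSO. Every inhibitor library was above every DMSO library, and replicate 2 was the lowest of the inhibitor libraries. The log2 fold change was 1.02 (SE 0.17, adjusted p = 0.0142), a ratio of mean FPKM of 2.79, on 253 to 502 reads with the inhibitor and 119 to 157 in DMSO. It was 1.46 (adjusted p = 0.00672) on reads and 1.19 (adjusted p = 0.00106) without inhibitor replicate 2. The call was lost without inhibitor replicate 1 or any single DMSO library (highest adjusted p = 0.0713). DBP shares 661 of its 6544 exonic bases with SPHK2, a sphingosine kinase gene on the opposite strand, which stood at 0.816 ± 0.109 FPKM with the inhibitor and 0.776 ± 0.190 FPKM in DMSO (SD, n = 3 each) and was below the filter on low values.

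BHLHE40, also called DEC1, fell. BHLHE40 (ENSG00000134107, chromosome 3, 4979116 to 4985323) encodes a repressor that competes for E-boxes and also responds to hypoxia and growth signals. It had 144, 101 and 147 FPKM with the inhibitor, against 235, 237 and 251 FPKM in DMSO. No inhibitor library came near the DMSO range, and replicate 2 was the lowest. The difference was −0.90 on the log2 scale (SE 0.17, adjusted p = 0.0201), and −0.72 (adjusted p = 0.000639) without inhibitor replicate 2. Without any single DMSO library, or without a filter on low values, the call was lost, with adjusted p over all alternatives from 6.4e-05 to 0.0909. At 5199 to 14284 reads a library, it is the most deeply measured of the clock genes.

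ARNTL, which encodes the activator subunit BMAL1, fell together with the receptor that represses it. ARNTL (ENSG00000133794, chromosome 11, 13276652 to 13387266) had 3.22, 3.13 and 2.60 FPKM with the inhibitor, against 4.23, 4.85 and 4.96 FPKM in DMSO. The groups stood apart, and here replicate 2 lay between the other inhibitor libraries. On the log2 scale ARNTL changed by −0.51 (SE 0.12, adjusted p = 0.0341), and −0.54 (adjusted p = 0.0115) without inhibitor replicate 2. Its call was lost without any other single library, without a filter on low values and when values were rescaled without mitochondrial and the 50 most abundant genes (−0.41; adjusted p over all alternatives 0.00419 to 0.139).

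**Figure D3:**
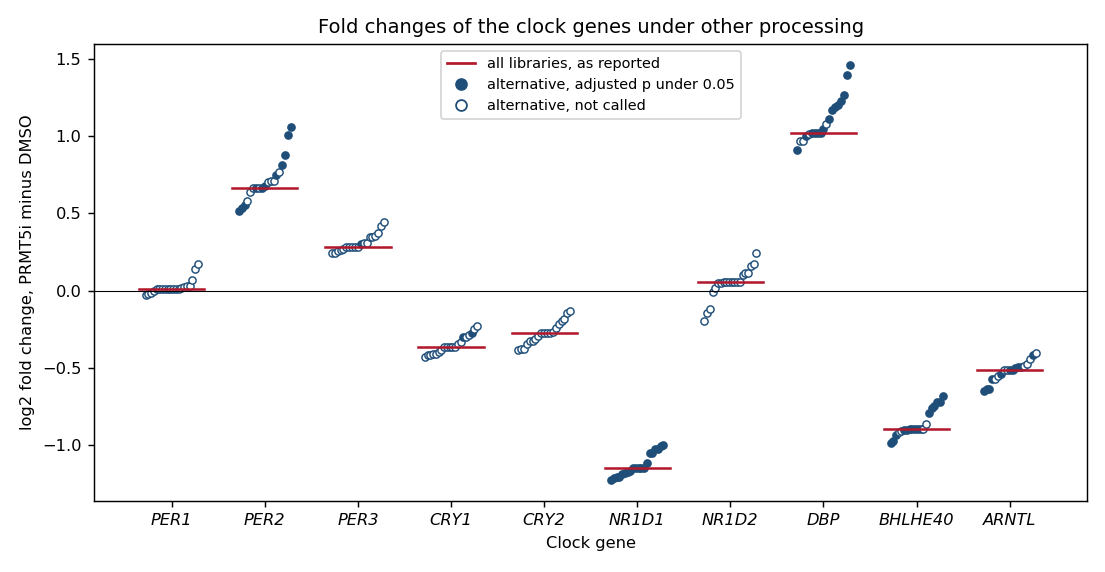
Log2 fold change (inhibitor minus DMSO) of each clock gene as reported (line) and under each alternative processing (points, filled where the adjusted p was under 0.05). NR1D1 is filled in all 20 alternatives; PER1 and NR1D2 lie on both sides of 0 and CRY2 is never filled.

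Inhibitor replicate 2 gave the lowest value of its group for 6 of the clock genes and the highest for 2, PER2 and NR1D2. For 7 of the 10 it lay farther from the mean of replicates 1 and 3 than these lay from each other on the log2 scale. The widest gap was in NR1D2, at 0.75 above that mean, followed by BHLHE40 at −0.52 and DBP at −0.50. Without this library 6 of the 10 were called, CRY1 joining the 5 above, against the 40.6% of all genes already given. When the trend of values with gene length was removed as well, CRY1 was not called and 5 of the 10 were.

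The rest of the clock was followed in 34 further genes sorted by role, of which 27 were measured well enough to test and 5 were called, each of them lower with the inhibitor. Of all tested genes, 17.2% were called in either direction and 10.0% lower. The lists were chosen with earlier results of these data known, so the count is not read against these shares. Without inhibitor replicate 2, 2 of the 27 were higher and 12 lower. In that fit 40.6% of all 13578 tested genes were called, 2372 higher and 3141 lower. With all libraries the median log2 fold change of the 27 was −0.17. The 7 under the filter were BHLHE41, CIART, RORA, RORB, HLF, FBXL21 and ZBTB16, of which FBXL21 and ZBTB16 had 0 reads in every library (3 reads over all 6 would be 0.00854 and 0.00519 FPKM). Among the partners and relatives of ARNTL, 1 of 3 fell. NPAS2, the alternative partner to CLOCK, had 2.90, 3.41 and 3.25 FPKM with the inhibitor, against 8.03, 8.01 and 8.95 FPKM in DMSO (log2 fold change −1.16, SE 0.11, adjusted p = 0.00290). The groups were far apart, and the call held in all 20 alternatives. CLOCK itself, named after its values were seen, averaged 1.66 ± 0.792 FPKM with the inhibitor and 1.12 ± 0.237 FPKM in DMSO (SD, n = 3 each; log2 fold change 0.29, adjusted p = 0.396). Its values were 1.22, 2.57 and 1.18 FPKM with the inhibitor, against 1.25, 1.26 and 0.844 FPKM in DMSO. Of the inhibitor libraries, only replicate 2 lay outside the DMSO range.

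None of the other repressors, D-box factors, kinases or ubiquitin ligases was called with all libraries. TIMELESS, related to a fly clock gene and best known in replication forks, had 22.8, 31.8 and 22.1 FPKM with the inhibitor, against 19.1, 17.9 and 17.1 FPKM in DMSO (log2 fold change 0.47, adjusted p = 0.0945). NFIL3, which competes with DBP for D-boxes, had 19.0 ± 1.63 and 23.6 ± 0.773 FPKM in inhibitor and DMSO libraries (−0.30, adjusted p = 0.106). CSNK1E, a kinase that marks PER proteins for degradation, had 25.1, 12.3 and 24.3 FPKM with the inhibitor, against 30.7, 30.8 and 34.6 FPKM in DMSO (−0.68, adjusted p = 0.131). Inhibitor replicate 2 was far below the others there, and TIMELESS, NFIL3 and CSNK1E were each called without it (0.30, −0.36 and −0.36, adjusted p = 0.0175, 0.00902 and 0.0127). Over all alternatives the adjusted p of these 3 genes ran from 0.00165 to 0.663.

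Of 8 clock output genes 2 fell, beside 10.0% of all tested genes called lower, and too few were tested to read the count against that share. ALAS1, the first enzyme of heme synthesis, had 44.4, 41.1 and 44.7 FPKM with the inhibitor, against 70.7, 72.7 and 81.4 FPKM in DMSO (log2 fold change −0.77, adjusted p = 0.00929). KLF9, a glucocorticoid-responsive transcription factor, averaged 6.40 ± 0.314 FPKM with the inhibitor and 10.2 ± 0.332 FPKM in DMSO (SD, n = 3 each; −0.59, adjusted p = 0.0133). Of the genes that respond to cAMP or glucocorticoids, signals that also act on PER1, 2 of 5 tested fell, again beside 10.0% of all tested genes and with few tested. CREM, a cAMP-response factor, changed by −0.73 (adjusted p = 0.0115) and the early-response receptor NR4A1 by −1.12 (adjusted p = 0.0202), while SIK1, another cAMP target, was not called (−0.11, adjusted p = 0.564). The glucocorticoid-responsive genes tested in this list, TSC22D3 and FKBP5, leaned higher and were not called. TSC22D3 had 23.6, 13.6 and 25.1 FPKM with the inhibitor, against 13.3, 13.4 and 14.4 FPKM in DMSO (0.52, adjusted p = 0.160). FKBP5 had 3.50, 4.81 and 3.28 FPKM with the inhibitor, against 2.99, 3.11 and 3.23 FPKM in DMSO (0.23, adjusted p = 0.309). These 4 called genes lost their calls without any single DMSO library, KLF9 also without inhibitor replicate 1 (highest adjusted p of each, 0.0568 to 0.0872).

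**Figure D4:**
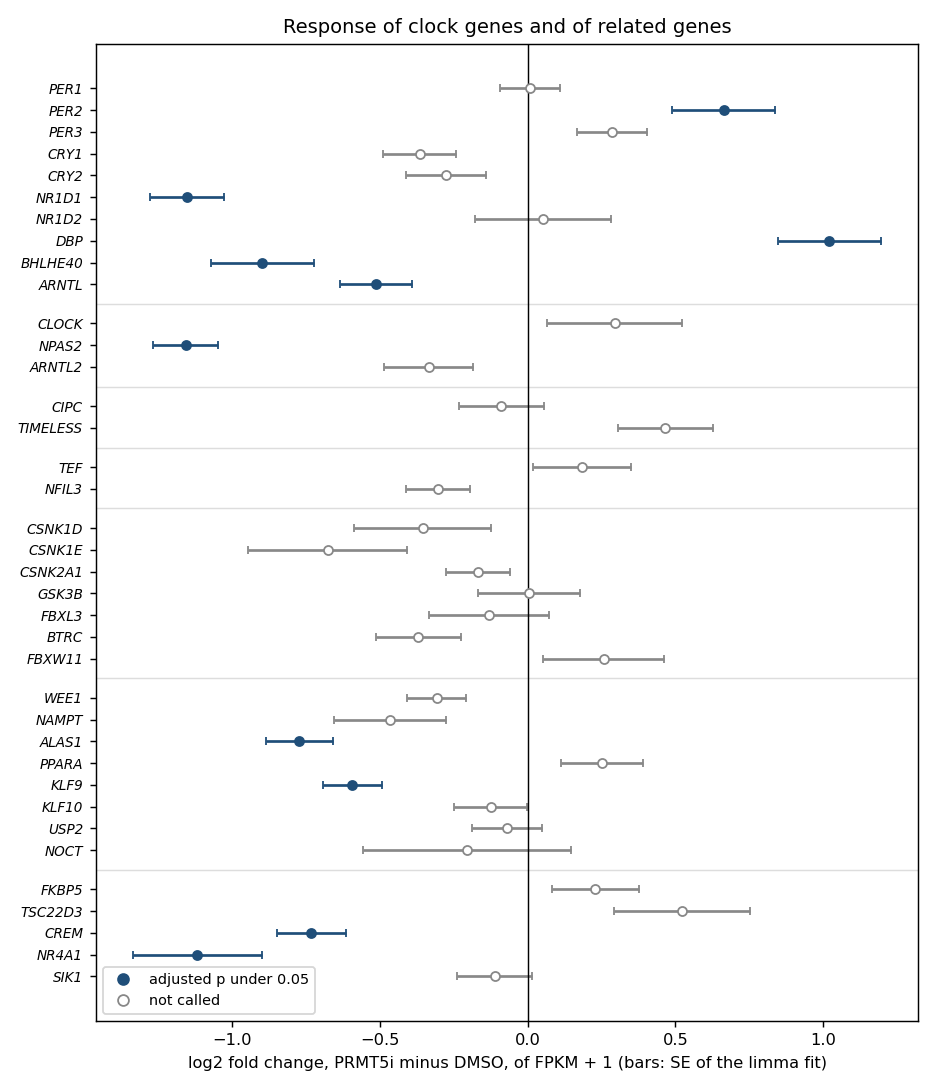
Log2 fold change of FPKM + 1 (inhibitor minus DMSO) with its standard error from limma, for the 10 clock genes and 27 related genes grouped by role; filled points had an adjusted p under 0.05. NR1D1, NPAS2 and NR4A1 lie furthest to the left, and DBP and PER2 furthest to the right.

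The genes whose pattern over the 6 libraries was most like that of NR1D1, by Pearson's r of log2(FPKM + 1), were the proteasome ATPase gene PSMC4 (r = 0.9996), CCDC86, PQLC2 and the transcription factor ETV4 (r = 0.9992 each) and the kinase gene MAP2K3 (r = 0.9991). Each was lower with the inhibitor, by log2 fold changes of −1.11 for CCDC86 to −1.62 for MAP2K3. The 6 points fall into the 2 groups, so r mostly follows the difference between them and is given as a description.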

How the data were processed

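RNA libraries came from total RNA by way of a directional kit, as the labels' protocols state. The submitters' processing notes name hg38; the sources used here give no aligner, counter or annotation release. The authors deposited FPKM values for 58735 genes in 6 libraries, with a gene length for each. Whole reads could be recovered: multiplied by length and by 1 factor per library, 100% of the values came within 0.01 of a whole number, and these are the reads quoted.

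Testing was limited to the 13578 genes that reached 1 FPKM in at least 3 libraries. Values of log2(FPKM + 1) were fitted with limma 3.58.1 in R 4.3.3 (eBayes with a trend, two-sided, no block), adjusted over all genes tested, at a threshold of 0.05. Related genes were compared by exact permutation in scipy 1.17.1. The test was tried on simulated data first. No simulated library was made to stand apart as inhibitor replicate 2 does, so that trial does not cover such data. Same-group libraries differed beyond sampling noise (chi-square per degree of freedom 2.48 to 98.7), so no pair was merged as 1 library; this does not show that they came from separate cultures.

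All 10 clock genes are named always. From each further list the called genes are named or, where none was called, the gene with the highest mean FPKM. SIK1, CLOCK, TSC22D3 and FKBP5 were named after their values were seen. One gene of these lists is not reported here and is in none of the list counts. The genes and lists were chosen with earlier results of these data known. Alternatives were pseudocounts of 0.1 and 0.5, no filter, a filter at 5 FPKM, TPM, quantile and reduced scaling, other limma priors, removal of a length trend (loess, span 0.3), limma-voom, a replicate block and leaving out each library. Estimated library weights, and the length trend removed without inhibitor replicate 2, were added after seeing the data. All 10 genes have the same coordinates in GENCODE 29.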

Additional observations from a re-analysis of the deposited data

How the results depend on the processing

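With all libraries 2339 genes, 5 clock genes and 5 related genes were called. Without a filter the first 2 counts were 1533 and 2, with the filter at 5 FPKM 1505 and 2 of the 5 clock genes left, and with a replicate block 1478 and 3. Leaving out 1 library gave 478 to 5513 genes, 1 to 6 clock genes and 1 to 14 related genes. Leaving out inhibitor replicate 2 gave the highest of each, and each DMSO library the lowest of the clock and related counts. Estimated library weights gave 7697 genes and 18 related genes, and leaving out inhibitor replicate 2 with the length trend removed gave 5523 and 14. NR1D1, NPAS2 and PRMT5 were called under every alternative.

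The sign of PER1 turned with TPM scaling (−0.026), library weights (−0.00067) and without DMSO replicate 2 or inhibitor replicate 3 (−0.02 and −0.03; leaving out 1 library gave −0.027 to 0.032). That of NR1D2 turned without DMSO replicate 3 (−0.0064) or inhibitor replicate 2 (−0.20, or −0.15 with the length trend removed) and with library weights (−0.12), with −0.20 to 0.24 on leaving out 1 library. The CRY1 minus CRY2 difference turned with quantile normalization (0.0084) and without DMSO replicate 1 (0.017). The causes were not tested.

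The deviations of same-numbered libraries of the groups correlated at r = −0.0179, 0.157 and 0.248 for numbers 1 to 3. Their labels share only a number, so whether they were paired is not known and was not tested. With the replicate block in the limma fit, PER2 (adjusted p = 0.0581) and ARNTL (adjusted p = 0.0782) lost their calls. TPM scaling and the filter at 5 FPKM put the median fold change over all genes, on the log2 scale, at −0.10 and −0.14, against −0.05 as reported. Scaling without mitochondrial and the 50 most abundant genes put it at 0.05 and called 1260 genes higher and 1000 lower, against 975 and 1364 as reported. On reads, limma-voom called 2554 genes. The 5 called clock genes kept their direction under every alternative in which they were fitted.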
